A study of Homo sapiens with 40 samples.

Results

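Wild-type (WT) HEK293A cells treated with topotecan (Tpc) and OL9-119 together were compared with the same cells given the solvent alone. The comparison takes the 4 libraries of WT cells that received 100 nM Tpc, 5 uM OL9-119 and 0.1% DMSO and the 4 libraries of WT cells that received 0.1% DMSO, which is 8 of the 40 libraries of the series, and it covers the 28922 genes whose counts add up to 10 or more in the 40 libraries, of 58395 in the table. HEK293A is an adherent human embryonic kidney line. The series holds poly(A) RNA of WT cells and of 1 PARP1-knockout (PARP1-KO) clone, each untreated, in DMSO, in Tpc, in OL9-119 and in both agents, with 4 libraries per condition. Treatment lasted 5 to 5.5 hours, and every treated group carries the DMSO of the control. WT cells received 100 nM Tpc and PARP1-KO cells 50 nM. The labels call the 4 libraries biological replicates and the study's methods call them technical. The p-values of the gene tests therefore measure the spread between libraries within a condition, estimated over all 40 libraries.

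Tpc holds topoisomerase 1 (TOP1) on the DNA strand that it has cut, and OL9-119 is described in the study as an inhibitor of tyrosyl-DNA phosphodiesterase 1 (TDP1), the enzyme that removes the trapped TOP1 peptide from the DNA end. NF-kappa B is held in the cytoplasm by I kappa B proteins; once freed it turns on chemokines, survival factors and its own inhibitors. ATF4 is a transcription factor whose mRNA is translated when the initiation factor eIF2 is phosphorylated, and its targets import and make amino acids and charge tRNAs. Genes of mitosis are transcribed mainly in G2 under the MuvB, B-MYB and FOXM1 factors.

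The 8 libraries held 3455043 to 14292607 counts in genes, and the shallowest was replicate 4 of the combination. Of 12 genes known in HEK293 cells, 11 averaged 10 or more counts. The list summed to 1873 to 2188 CPM (counts per 1000000) in the combination and 2063 to 2558 CPM in DMSO. Sums of marker lists use the raw library totals, and all other CPM use TMM-scaled library sizes. The mature kidney markers UMOD, AQP2, SLC12A1 and SLC34A1 had no count in any of the 8 libraries, AQP1 and LRP2 of that list averaged 10 or more counts, and the list summed to 11.6 to 20.4 CPM in the combination and 8.54 to 15.2 CPM in DMSO. PTPRC, MS4A1 and NKG7 of 10 leukocyte markers had no count in them either. Replicate 3 of WT DMSO stood apart from the other DMSO libraries: genes with under 2000 exonic bases had a median log2 level 0.52 above the mean of the other DMSO libraries, and those with 8000 exonic bases or more -0.36 relative to it. Cytosolic ribosomal protein genes took 10.7% of its counts, against 5.83% to 7.29% in the other DMSO libraries and 5.27% to 6.27% in the combination. Results that rest on this library are given below with and without it.

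At an adjusted p below 0.01 (edgeR quasi-likelihood test with Benjamini-Hochberg adjustment), 978 genes differed between the combination and DMSO, 3.38% of those tested. Of these 532 were higher in the combination (1.84%) and 446 lower (1.54%), and 807 did not overlap between the groups, against 1835 of all 28922 genes tested (6.34%). A change of at least 2-fold was seen for 189 higher and 92 lower genes. The count depends on how the spread is estimated: from all 40 libraries it was 978, from the 20 WT libraries 341 and from the 8 libraries compared 136. All 136 were among the 978. The 978 genes kept their direction in the 8-library fit, which takes the fold change from the same 8 libraries and so could hardly change it. Scaling by upper quartiles shifted the median gene by -0.07 (log2) and gave 407 higher and 712 lower genes, a share of 36.4% higher against 54.4%. Without replicate 3 of DMSO 608 genes were called, 520 of them among the 978, and without replicate 1 of the combination 620. The library names fall into 3 prefixes that each hold as many combination as DMSO libraries. Of the 937 called genes with a mean of at least 50 counts, 912 had the same direction within every prefix. These genes were chosen in the same libraries, so much of that agreement was fixed in advance. With a term for the prefix 979 genes were called, 950 of them among the 978.

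The enzymes that both agents act on were examined first. TOP1 had levels of 366, 308, 288 and 329.8 CPM in the 4 combination libraries and 332, 344, 396 and 359 CPM in DMSO. The groups overlapped, and the means of 323 ± 33.3 and 358 ± 28.1 CPM (SD, n = 4 each) gave p = 0.171 in a two-sided exact permutation test, where the smallest p that 70 divisions allow is 0.0286. TDP1 (ENSG00000042088, hg38 chr14:89954939-90044764) had levels of 16.3, 10.1, 21.7 and 16.7 CPM in the combination and 29.7, 20.6, 40.03 and 26.3 CPM in DMSO. The highest combination library lay just above the lowest DMSO library, and all others were apart (p = 0.0571, exact permutation test). The log2 fold change of -0.85 ± 0.26 (SE) did not reach the threshold across all genes (adjusted p = 0.0317). PARP1, the main poly(ADP-ribose) polymerase, showed -0.04 on the log2 scale (adjusted p = 0.947). Of the 10 topoisomerases and related enzymes on the list, only TOP2A, the topoisomerase of dividing cells, was called, and it fell by 0.69 ± 0.11 (SE) on the log2 scale (adjusted p = 8.84e-06).

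NF-kappa B target genes held the largest increases among called genes with a mean of at least 50 counts and no overlap between the groups. The 10 highest were CXCL10, CXCL2, CXCL1, CXCL8, CHAC1, CCL20, TNFAIP3, CD69, PTX3 and TCIM, and 8 of them (all but CHAC1 and TCIM) are known to respond to NF-kappa B. Of 14 NF-kappa B subunits and inhibitors 7 rose and none fell, with a list median log2 fold change of 0.93 beside 0.00 for all genes. CXCL8 (interleukin 8, which attracts neutrophils; chr4:73740519-73743716) measured 453, 359.9, 291 and 326 CPM in the combination and 15.4, 23.3, 10.9 and 11.4 CPM in DMSO. Every combination library was far above every DMSO library (log2 fold change 4.54 ± 0.20 (SE), adjusted p = 2.28e-26). TNFAIP3 encodes A20, an inhibitor that edits ubiquitin on the signalling proteins upstream, and it measured 161, 194, 183 and 189 CPM against 13.01, 12.4, 4.08 and 15.2 CPM. The groups did not overlap (log2 fold change 4.02 ± 0.20 (SE), adjusted p = 2.35e-23). NFKBIA, which encodes I kappa B alpha, rose from 50.4, 34.8, 46.5 and 42.4 CPM in DMSO to 199, 259.8, 215 and 214 CPM (log2 fold change 2.35 ± 0.13 (SE), adjusted p = 4.46e-21). RELB, a subunit of the alternative pathway, rose as well (log2 fold change 2.17 ± 0.19 (SE), adjusted p = 1.90e-13). NFKBIZ, a nuclear co-activator, was called (log2 fold change 1.45 ± 0.33 (SE), adjusted p = 0.00224) although its groups overlapped, and without replicate 3 of DMSO its adjusted p was 0.0186. RELA, the main activating subunit, reached only 0.39 on the log2 scale (adjusted p = 0.0305). TNFAIP3 overlaps an antisense RNA, WAKMAR2. The strand setting of the counting is not given, so reads of such a pair cannot be told apart, and the same holds for many genes below, among them PTX3, ICAM1, IER3, JUNB, MAFF, IRF1, KIF20A, PLK1, ALDH1L2, DNAJB1, HSPE1, VEGFA, TPI1, PRDX1, TWNK, MT-TQ, NDUFA2, ATP5PF, RPL38, RPL35, SNRPD2, UBB, GPHN and TTC28.

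Among 19 chemokines and cytokines 6 rose and none fell, and the list median was 1.64. CXCL10, which attracts T cells, was close to absent in DMSO (0, 0.105, 0 and 0.783 CPM) and reached 22.8, 19.8, 15.1 and 11.8 CPM. The DMSO values rest on a handful of reads, so the fold change (log2 fold change 6.53 ± 0.97 (SE), adjusted p = 2.16e-06) is imprecise, and it was 8.65 without replicate 4 of DMSO. CXCL2 behaved alike, with 0, 0, 0.719 and 0 CPM in DMSO and 11.8, 15.4, 9.71 and 12.9 CPM in the combination (log2 fold change 6.13 ± 0.82 (SE), adjusted p = 1.67e-07). Its fold change rests on replicate 3 of DMSO: without that library all DMSO values are 0, and the fitted 10.11 is no bound. CXCL1 measured 30.8, 33.03, 16.1 and 19.2 CPM against 0.426, 0, 1.32 and 0.313 CPM (log2 fold change 5.59 ± 0.60 (SE), adjusted p = 3.04e-10), and had 6.52 without that library. CXCL1, CXCL2 and CXCL3 are close relatives in sequence, and a read that fits several of them is not counted, so their levels are uncertain. CCL20, the ligand of CCR6, rose from 6.04, 1.48, 4.79 and 2.19 CPM to 91.5, 63.8, 63.9 and 72.5 CPM (log2 fold change 4.28 ± 0.29 (SE), adjusted p = 5.61e-18). Several cytokines were too low to judge: IL6, IL1A and CCL5 averaged under 10 counts per library. In CCL2 the log2 fold change of 1.64 was not called (adjusted p = 0.0208).

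Of 14 surface proteins and survival factors 9 rose and none fell (median 1.93). CD69, a lymphocyte activation marker, measured 17.3, 28.9, 19.3 and 10.7 CPM in the combination and 0.426, 0.738, 4.2 and 0.939 CPM in DMSO, and its lowest combination library still exceeded the highest DMSO library (log2 fold change 3.62 ± 0.59 (SE), adjusted p = 1.58e-05). That highest library was replicate 3, and without it the log2 fold change was 4.81. TNFRSF9, a co-stimulatory receptor, rose by 2.55 on the log2 scale (SE 0.20), ICAM1, an adhesion molecule, by 2.23 (SE 0.33) and IER3, an early survival gene, by 2.21 (SE 0.13). BIRC3 and BIRC2, which encode inhibitors of apoptosis, had log2 fold changes of 1.99 and 0.84 and were called too. PTX3, a secreted pattern-recognition protein on no list, rose from 6.61, 2.32, 8.87 and 6.26 CPM to 62.3, 69.4, 76.0 and 66.7 CPM (log2 fold change 3.51 ± 0.23 (SE), adjusted p = 5.26e-18). TCIM, a small protein first described in thyroid cancer, rose from 13.01, 14.8, 8.75 and 5.79 CPM to 90.9, 98.9, 93.4 and 86.2 CPM (log2 fold change 3.10 ± 0.21 (SE), adjusted p = 1.63e-17).

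The promoters of CXCL8, TNFAIP3 and NFKBIA, which rose at high counts, are shown for the place of the letters of an NF-kappa B site before the gene start. Sequences are RefSeq promoters (GRCh38.p14), from 250 bases before to 50 bases after the start, with matches to GGNNTTTCC on either strand in capitals, and for CXCL8 also the AP-1 letters TGACTCA or TGAGTCA. They come from chr4:73740319-73740618 (plus strand), chr6:137867009-137867308 (plus strand) and chr14:35404700-35404999 (minus strand).
CXCL8: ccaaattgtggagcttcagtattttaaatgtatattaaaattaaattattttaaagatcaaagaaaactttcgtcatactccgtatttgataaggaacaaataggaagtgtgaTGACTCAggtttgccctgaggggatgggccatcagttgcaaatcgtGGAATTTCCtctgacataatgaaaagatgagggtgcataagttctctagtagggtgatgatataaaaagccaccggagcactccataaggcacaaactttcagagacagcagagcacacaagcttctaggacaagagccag
TNFAIP3: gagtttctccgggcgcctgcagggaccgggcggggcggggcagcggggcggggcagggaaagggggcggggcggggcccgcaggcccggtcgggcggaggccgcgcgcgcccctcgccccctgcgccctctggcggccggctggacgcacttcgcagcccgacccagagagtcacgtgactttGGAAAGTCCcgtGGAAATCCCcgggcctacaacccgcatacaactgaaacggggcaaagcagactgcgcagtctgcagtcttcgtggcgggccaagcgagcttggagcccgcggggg
NFKBIA: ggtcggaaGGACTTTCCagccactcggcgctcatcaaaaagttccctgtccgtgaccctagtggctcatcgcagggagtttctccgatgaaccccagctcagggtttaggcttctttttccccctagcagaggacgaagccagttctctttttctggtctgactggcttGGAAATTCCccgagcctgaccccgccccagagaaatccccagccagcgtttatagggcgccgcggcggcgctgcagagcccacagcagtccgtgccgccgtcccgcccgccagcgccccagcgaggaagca
In CXCL8 the match began at -91 relative to the start and the AP-1 letters at -137. TNFAIP3 held a pair of matches, at -67 and -55, and NFKBIA a pair at -242 and -81. These letters were present in 11 of 15 promoters of the chemokine list (73.3%), in 6 of 12 of the subunits and inhibitors (50.0%) and in 6.26% of all 27305 promoters in the table. Among the genes that rose they were in 54 of 425 promoters (12.7%), and among those that fell in 21 of 368 (5.71%). Such a match is a description of the sequence and no measurement of binding, and the same letters in another gene need not be a site.

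Immediate early genes rose alongside: 10 of 30 were called, none fell, and the median was 0.73. ATF3, a stress-induced repressor and activator of the ATF/CREB family, measured 355, 364, 347 and 388 CPM against 85.8, 112, 75.8 and 89.2 CPM (log2 fold change 2.00 ± 0.11 (SE), adjusted p = 1.35e-21). The AP-1 genes JUNB (log2 fold change 1.93 ± 0.18 (SE), adjusted p = 1.17e-12) and JUN (log2 fold change 1.38 ± 0.13 (SE), adjusted p = 1.08e-12) and the small MAF protein gene MAFF (log2 fold change 1.76 ± 0.23 (SE), adjusted p = 7.61e-08) did not overlap between groups either. FOS and EGR1, which mark growth factor signalling, had log2 fold changes of 0.72 and 0.33 and were not called.

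Of 28 target genes of p53 5 were higher and 1 lower, beside 3.38% of all genes called, and the median was 0.12. GADD45A, a stress gene that p53 and ATF4 both drive, rose from 65.9, 46.6, 85.9 and 65.3 CPM to 188, 152, 165 and 179 CPM (log2 fold change 1.38 ± 0.14 (SE), adjusted p = 3.94e-11). PMAIP1, the BH3-only protein NOXA, measured 731, 789, 679 and 698 CPM against 456, 423, 372 and 425 CPM (log2 fold change 0.79 ± 0.09 (SE), adjusted p = 2.34e-09). SESN2 (0.73) and PLK2 (0.65) were called as well. The gene of the cell cycle inhibitor p21, CDKN1A, had a log2 fold change of -0.02, and MDM2, the ubiquitin ligase of p53, of -0.25, and neither was called. In the BCL2 family PMAIP1 was the only one of 15 called, and MCL1, a survival member, had 0.21 (adjusted p = 0.212). Of 19 interferon-stimulated genes IRF1, an early regulator, rose with overlapping groups (log2 fold change 0.86 ± 0.20 (SE), adjusted p = 0.00293), BST2, an antiviral membrane protein, fell (log2 fold change -0.76 ± 0.14 (SE), adjusted p = 1.19e-04) and the median was 0.09.

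Genes of G2 and mitosis fell together. Of 48 on the list 32 fell and none rose, 46 had a log2 fold change below 0, and the list summed to 4087 to 4645 CPM in the combination against 6410 to 7692 CPM in DMSO (median -0.75). In bulk RNA, fewer cells in G2 or mitosis and less of these mRNAs per cell cannot be told apart. KIF20A, a kinesin of cytokinesis, measured 29.2, 30.3, 42.6 and 41.7 CPM in the combination and 132, 163, 96.1 and 140.1 CPM in DMSO (log2 fold change -1.90 ± 0.15 (SE), adjusted p = 4.66e-15). PLK1, the kinase that drives entry into mitosis (chr16:23677656-23690367), measured 45.7, 27.2, 38.5 and 52.99 CPM against 133, 123.2, 94.6 and 124.9 CPM (log2 fold change -1.55 ± 0.17 (SE), adjusted p = 1.22e-09). In both genes the highest combination library was below the lowest DMSO library. PSRC1, a spindle protein (log2 fold change -1.80 ± 0.27 (SE), adjusted p = 1.71e-06), and CENPA, the centromeric histone (log2 fold change -1.71 ± 0.27 (SE), adjusted p = 5.53e-06), fell likewise. PIF1, a DNA helicase, had the largest fitted change of the list, from 12.1, 8.97, 18.6 and 10.5 CPM to 0.0801, 0.108, 2.49 and 1.37 CPM (log2 fold change -3.74 ± 0.60 (SE), adjusted p = 1.09e-05), at low counts in the combination, and without replicate 3 of the combination it was -5.19. AURKA, the spindle pole kinase, fell by 1.49 on the log2 scale and CCNB1, the mitotic cyclin, by 1.21. CDK1, its kinase partner, had a log2 fold change of -0.40 and was not called (adjusted p = 0.0118). Genes outside the ranking rule, such as AURKA, CCNB1 and CDK1 here and BIRC3, DDIT3 and RELA above and below, are given for their known role and were chosen after their values were seen.

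The promoters of KIF20A (chr5:138178862-138179161, plus strand) and PLK1 (chr16:23678639-23678938, plus strand) are shown because G2/M genes share the cell cycle homology region and CCAAT boxes. Capitals mark TTTGAA and CCAAT on either strand.
KIF20A: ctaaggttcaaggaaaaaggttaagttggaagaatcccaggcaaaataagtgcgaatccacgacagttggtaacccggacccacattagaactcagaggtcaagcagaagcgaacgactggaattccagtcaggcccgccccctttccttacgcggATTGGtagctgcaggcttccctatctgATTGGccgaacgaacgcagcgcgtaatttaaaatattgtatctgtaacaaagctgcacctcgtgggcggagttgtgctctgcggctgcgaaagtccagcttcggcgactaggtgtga
PLK1: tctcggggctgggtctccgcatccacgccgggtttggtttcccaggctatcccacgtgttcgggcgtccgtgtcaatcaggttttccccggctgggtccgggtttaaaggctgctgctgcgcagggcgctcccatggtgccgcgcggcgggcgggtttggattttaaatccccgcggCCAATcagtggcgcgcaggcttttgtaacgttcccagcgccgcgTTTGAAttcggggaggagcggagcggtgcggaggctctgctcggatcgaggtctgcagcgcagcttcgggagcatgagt
PLK1 held TTTGAA at -29 and CCAAT at -73, and KIF20A held a pair of CCAAT boxes on the reverse strand at -94 and -67 and no TTTGAA in this window. TTTGAA was in 24 of 41 promoters of the list (58.5%) against 15.4% of all promoters, and CCAAT in 30 of 41 (73.2%) against 35.7%. Among all called genes the directions were alike. TTTGAA was in 12.7% of promoters of genes that rose and 14.4% of those that fell, and CCAAT in 43.8% and 45.9%.

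Of 50 G1/S and replication genes 4 rose and none fell (median 0.19), namely ORC1 of the origin recognition complex, POLD3 of DNA polymerase delta and the clamp loaders RFC5 and RFC3, with log2 fold changes of 0.69, 0.56, 0.54 and 0.54. Without replicate 3 of DMSO, ORC1 (adjusted p = 0.0127), RFC5 (adjusted p = 0.0835) and RFC3 (adjusted p = 0.0128) were not called. In that fit 3 of the 50 were called as higher, so other members of the list took their place. Among 45 genes of homologous recombination, the Fanconi pathway and checkpoints 6 rose and none fell (median 0.31). They include EXO1, the resection nuclease (log2 fold change 0.76 ± 0.12 (SE), adjusted p = 7.94e-06), BARD1 and PALB2, partners of BRCA1 and BRCA2 (0.75 and 0.80), and NBN, the sensor of double-strand breaks (0.73). PALB2 was lost without replicate 3 of DMSO (adjusted p = 0.0327), where 4 of the 45 rose. Single-strand break repair showed 1 call in 25 genes, the chromatin protein HMGB1 (-0.50), which was not called without that library (adjusted p = 0.0197), and the flap endonuclease FEN1 had -0.32 (adjusted p = 0.0731). Histone mRNAs of replication mostly lack poly(A) tails, and of 40 tested only 4 averaged 50 counts or more. H2AC8 was called at a mean of 3.75 counts per library (log2 fold change 6.29, adjusted p = 0.0068), not without replicate 3 of DMSO. H2BC12 and H1-2 had log2 fold changes of -0.66 and -0.62 and were not called.

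The ATF4 pathway was the list with the largest share of genes that rose: 28 of 38 passed, none fell and the median was 0.98. Its sum was 7062 to 7386 CPM in the combination and 3951 to 4308 CPM in DMSO. CHAC1, which breaks down glutathione (chr15:40952962-40956512), measured 14.98, 41.02, 34.5 and 31.9 CPM in the combination and 2.7, 0.738, 0.12 and 1.88 CPM in DMSO. Replicate 1 was the lowest of the combination libraries and still above every DMSO library (log2 fold change 4.40 ± 0.44 (SE), adjusted p = 2.98e-11). Without replicate 1 of DMSO the log2 fold change was 5.14. SLC7A11, the cystine importer, measured 64.1, 36.8, 77.3 and 82.9 CPM against 13.5, 10.7, 7.91 and 17.8 CPM (log2 fold change 2.39 ± 0.22 (SE), adjusted p = 2.33e-12). CTH, which makes cysteine from cystathionine, measured 35.3, 22.6, 19.9 and 20.9 CPM against 6.61, 2.53, 8.15 and 5.95 CPM (log2 fold change 2.10 ± 0.28 (SE), adjusted p = 1.72e-07). ALDH1L2, a mitochondrial folate enzyme, rose by 2.06 on the log2 scale (SE 0.28). DDIT3, which encodes CHOP, had a log2 fold change of 1.43, TRIB3, a pseudokinase that CHOP induces, of 1.06 and PPP1R15A, the phosphatase subunit that reverses eIF2 phosphorylation, of 1.92, and all of them were called. The mRNA of ATF4 itself had 0.50 and was not called (adjusted p = 0.0149). ASNS, asparagine synthetase, averaged only 24.0 counts here and was not called.

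Capitals in the promoters of CHAC1 (chr15:40953221-40953520, plus strand) and CTH (chr1:70411018-70411317, plus strand) mark TGATGNAA on either strand, the composite element that C/EBP and ATF proteins bind.
CHAC1: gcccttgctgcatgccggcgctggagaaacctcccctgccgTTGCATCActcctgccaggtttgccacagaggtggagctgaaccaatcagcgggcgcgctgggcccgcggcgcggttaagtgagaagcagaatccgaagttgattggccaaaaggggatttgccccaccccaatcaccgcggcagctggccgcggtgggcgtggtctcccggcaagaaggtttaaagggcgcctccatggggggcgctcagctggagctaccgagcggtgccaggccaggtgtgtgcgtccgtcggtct
CTH: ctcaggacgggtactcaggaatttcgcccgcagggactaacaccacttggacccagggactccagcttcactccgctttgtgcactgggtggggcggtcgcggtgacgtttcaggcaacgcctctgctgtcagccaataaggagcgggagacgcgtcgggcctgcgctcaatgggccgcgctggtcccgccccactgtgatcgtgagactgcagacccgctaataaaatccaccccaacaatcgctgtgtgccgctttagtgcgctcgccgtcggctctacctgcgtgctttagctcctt
CHAC1 held 1 match on the reverse strand at -209, and CTH held none in this window. The element was in 8 of 32 promoters of the list and in 3.67% of all promoters. Among all called genes it was in 4.47% of promoters of those that rose and 1.63% of those that fell.

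Of 24 ER chaperone and unfolded protein response genes 2 rose and 2 fell (median -0.13). XBP1, the transcription factor of that response, rose from 209, 241, 239 and 175 CPM to 437, 441, 380.0 and 346 CPM (log2 fold change 0.89 ± 0.13 (SE), adjusted p = 5.66e-07), and HERPUD1, an ER degradation protein, rose by 0.79 with overlapping groups. SEC61B, a subunit of the translocon, fell (log2 fold change -0.99 ± 0.19 (SE), adjusted p = 3.14e-04), and SDF2L1, an ER chaperone cofactor, fell with overlapping groups (log2 fold change -1.19 ± 0.31 (SE), adjusted p = 0.00902) and was not called without replicate 3 of DMSO (adjusted p = 0.153). Among 26 NRF2 and glutathione genes SLC7A11 rose and 3 fell. They are PRDX1, a peroxidase (-0.76), TALDO1 of the pentose phosphate pathway (-0.64) and thioredoxin TXN (-0.61). TALDO1 and TXN were not called without that library (adjusted p = 0.0154 and 0.0267). In the glycolysis list of 25 genes VEGFA, the angiogenic factor, rose (log2 fold change 1.48 ± 0.12 (SE), adjusted p = 4.09e-14) with the hexokinase HK2 (0.85), while TXNIP, the glucose-induced inhibitor of glucose uptake, fell (log2 fold change -0.95 ± 0.14 (SE), adjusted p = 1.54e-06) and TPI1 fell by 0.50 on the log2 scale with overlapping groups. TPI1 had an adjusted p of 0.0221 without replicate 3 of DMSO.

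Heat shock genes fell. Of 23 genes 9 fell and none rose, 22 had a log2 fold change below 0, the median was -0.45, and the sum was 7084 to 8638 CPM in the combination against 10972 to 12918 CPM in DMSO. Without replicate 3 of DMSO 7 fell and the median was -0.41. HSPA8, the constitutive HSC70 chaperone (chr11:123057489-123063230), measured 449.7, 547, 409.9 and 360.2 CPM in the combination and 1473, 1608, 1599.9 and 1390.1 CPM in DMSO. The groups lay far apart (log2 fold change -1.78 ± 0.13 (SE), adjusted p = 5.20e-17). HSPA1B, the inducible HSP70, measured 97.2, 122.3, 129.7 and 117.2 CPM against 594, 550.4, 876 and 837 CPM (log2 fold change -2.62 ± 0.16 (SE), adjusted p = 3.95e-20). HSPA1A is nearly identical to it in sequence and averaged only 35.6 counts, so how reads were split between the pair is uncertain. DNAJB1, their co-chaperone, fell from 234, 186, 274 and 209 CPM to 109, 113, 108 and 84.3 CPM (log2 fold change -1.12 ± 0.10 (SE), adjusted p = 3.00e-12). HSPE1, the mitochondrial co-chaperonin, was called with all libraries (-0.93) and had an adjusted p of 0.0213 without replicate 3 of DMSO. HSF1, the factor that drives the programme, had a log2 fold change of 0.06. The HSPA8 promoter (chr11:123062087-123062386, minus strand) is shown with the heat shock letters GAANNTTC in capitals.
HSPA8: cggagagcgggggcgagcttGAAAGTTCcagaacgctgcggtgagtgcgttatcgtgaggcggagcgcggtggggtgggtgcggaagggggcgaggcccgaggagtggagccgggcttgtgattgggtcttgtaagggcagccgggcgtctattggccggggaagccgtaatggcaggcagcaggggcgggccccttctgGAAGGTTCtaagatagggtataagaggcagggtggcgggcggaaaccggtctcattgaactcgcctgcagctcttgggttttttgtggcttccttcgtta
It held matches at -230 and -50. GAANNTTC was in 8 of 21 promoters of the list (38.1%) and in 6.87% of all promoters. Among all called genes it was in 6.12% of promoters of those that rose and 7.07% of those that fell.

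Most transcripts of mitochondrial DNA were lower, by unequal amounts. Reads on mitochondrial genes made up 6.34%, 6.52%, 5.07% and 5.91% of the counts in the combination and 7.45%, 7.81%, 8.25% and 6.38% in DMSO. The replicates overlapped in 1 pair of libraries (difference of means -1.51 percentage points, p = 0.0571, two-sided exact permutation test). Of 12 mRNAs of the heavy strand 8 fell, with a list median of -0.60. MT-ND5, a complex I subunit encoded last before cytochrome b on that strand (chrM:12337-14148), measured 961, 846, 599 and 775 CPM in the combination and 2503, 3424, 2553 and 3001 CPM in DMSO (log2 fold change -1.85 ± 0.23 (SE), adjusted p = 2.32e-08). MT-ND1, a complex I subunit near the start, had a log2 fold change of -0.20 and was not called. MT-ND3 (-1.28), MT-CO2 (-0.99) and MT-CO3 (-0.74) fell by intermediate amounts. MT-ND6, the only mRNA of the light strand, measured 85.7, 109, 113.9 and 152 CPM against 264, 271, 588 and 467 CPM (log2 fold change -1.80 ± 0.23 (SE), adjusted p = 9.05e-08). The ribosomal RNA MT-RNR2 was not called (-0.26, adjusted p = 0.184). MT-RNR1, the other ribosomal RNA, went the other way (0.67). It was not called with all libraries, but was called as higher without replicate 3 of DMSO and against Tpc alone. The tRNAs MT-TQ and MT-TP, also of the light strand, had the lowest fold changes of all named genes (-5.33 and -4.22). tRNAs are short and lack the poly(A) tail that the libraries were selected for, so those values are uncertain. Without 1 combination library the fitted value was -4.73 (replicate 1) or -7.27 (replicate 4) for MT-TQ and -6.68 (replicate 2) for MT-TP. In the nuclear genes for mitochondrial transcription 2 of 17 rose, TWNK, the replicative helicase (0.65; adjusted p = 0.0127 without replicate 3 of DMSO), and SUPV3L1, a helicase of RNA decay (0.58).

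Lists of mostly short, abundant mRNAs had medians below 0, and their calls moved with the DMSO library that stands apart. Of 76 nuclear respiratory chain subunits 23 fell (median -0.52), and 10 fell without replicate 3 of DMSO (median -0.29). NDUFA2 of complex I (log2 fold change -1.05 ± 0.20 (SE), adjusted p = 1.95e-04), ATP5MC1 (log2 fold change -1.01 ± 0.20 (SE), adjusted p = 4.38e-04) and ATP5PF (log2 fold change -1.01 ± 0.17 (SE), adjusted p = 1.53e-05) of the ATP synthase did not overlap between groups. NDUFS6 of complex I was called with all libraries (-1.04) and had an adjusted p of 0.0138 without that one. Of 79 cytosolic ribosomal protein genes 16 fell (median -0.43) and none without it (median -0.19). RPL38 measured 425, 492, 495 and 459 CPM in the combination and 614, 633, 1264 and 581 CPM in DMSO, where replicate 3 was far above the others. In untreated WT cells it measured 904, 662, 956 and 580 CPM, all above the combination. RPL35 (731, 625, 1161 and 609 CPM in DMSO), RPL24 (658, 584, 1096 and 643 CPM) and RPS15 (471, 289.7, 638 and 421 CPM) were highest in the same library. Ribosomal protein genes and UBB have near-identical processed copies, so their counts are uncertain. Mitochondrial ribosomal proteins had 5 of 76 lower, among them MRPL23, MRPL33, MRPL27 and MRPL51 (-1.15, -1.04, -0.80 and -0.74), and none without it. In the proteasome 6 of 42 fell with all libraries and 4 without replicate 3. POMP, the assembly factor (log2 fold change -0.93 ± 0.16 (SE), adjusted p = 4.65e-05), and the core subunit PSMA3 (-0.55) did not overlap between groups, while PSMB1 and SEM1 (-0.65 and -0.70) did and had adjusted p of 0.0617 and 0.15 without that library. For the core spliceosome 6 of 40 fell and 1 rose (3 and 1 without replicate 3), including SF3B5 (log2 fold change -0.92 ± 0.16 (SE), adjusted p = 6.12e-05), SNRPD2 (-0.85), LSM3 (-0.75) and SNRPC (-0.77, adjusted p = 0.0105 without that library). The part of that library in these differences was not tested beyond leaving it out.

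Some RNA-processing genes rose. SRSF6 (log2 fold change 0.71 ± 0.12 (SE), adjusted p = 2.52e-05) and SRSF10 (log2 fold change 0.69 ± 0.11 (SE), adjusted p = 1.29e-05), which select splice sites, and the kinase CLK4 (0.60) were higher, and SRSF9 was lower (-0.45; adjusted p = 0.0401 without replicate 3 of DMSO), out of 20 SR genes and kinases with a median of 0.21. Of 20 snoRNA host genes 4 rose and none fell (median 0.32). SNHG1, a host of box C/D snoRNAs, measured 328, 295, 339 and 277 CPM against 155, 128.3, 143 and 112 CPM (log2 fold change 1.20 ± 0.12 (SE), adjusted p = 1.67e-11), and SNHG17 (1.01), GAS5 (0.72) and SNHG32 (0.52) rose by less. In ribosome biogenesis 4 of 46 rose and 1 fell. DDX21, a nucleolar helicase, had a log2 fold change of 0.62, WDR3 and WDR75 had 0.50 and 0.47 and fibrillarin FBL -0.52, and all but DDX21 were not called without replicate 3 of DMSO (adjusted p = 0.0452, 0.0572 and 0.115). Among 17 poly-ubiquitin and short-lived inhibitor genes SPRY4, an inhibitor of growth factor signalling, rose at low counts (log2 fold change 2.07 ± 0.38 (SE), adjusted p = 1.28e-04; 2.90 without replicate 1 of DMSO). UBB, a poly-ubiquitin gene, and CCNT2, a cyclin of transcription elongation, were called with all libraries (-0.47 and 0.65) and not without replicate 3 of DMSO (adjusted p = 0.0406 and 0.0313). None of 22 cholesterol and fatty acid synthesis genes was called by edgeR or DESeq2, and 1 had an unadjusted p below 0.05 in edgeR. SCD and FASN, enzymes of fatty acid synthesis, had log2 fold changes of 0.20 and -0.04.

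**Figure D1:**
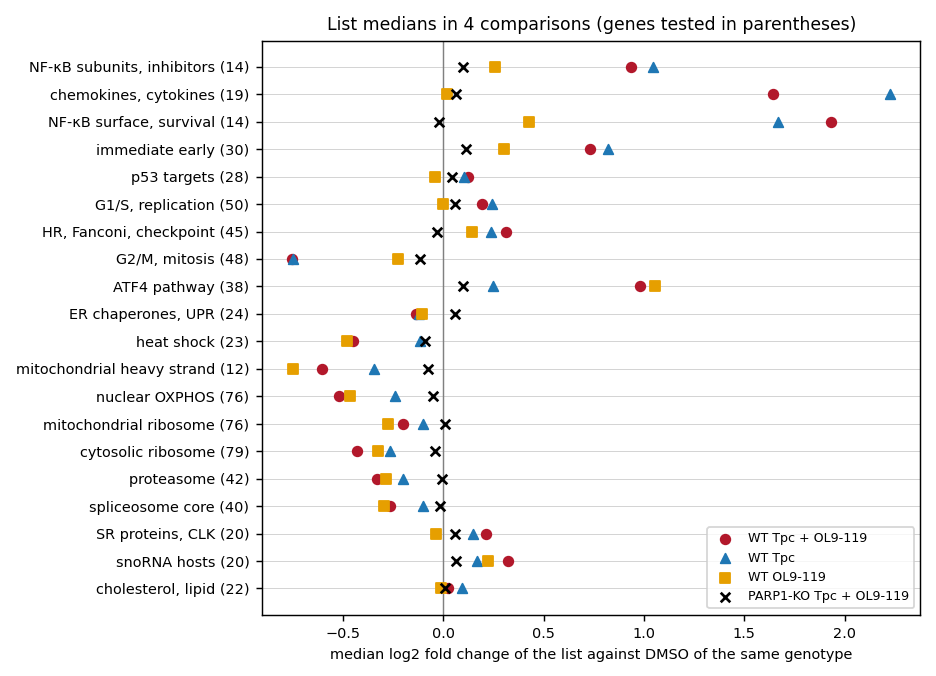
Median log2 fold change against DMSO of the same genotype (horizontal axis) for 20 lists, in WT cells given the combination (circles), Tpc (triangles) or OL9-119 (squares) and in PARP1-KO cells given the combination (crosses); the number of genes tested is in parentheses. The combination lies near Tpc for the G2/M list (-0.75 for each) and near OL9-119 for the ATF4 list (0.98 and 1.05), and the PARP1-KO medians lie close to 0.

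The combination was then set against each agent alone, which uses other control libraries. Against Tpc alone 52 genes differed (0.18% of those tested), 34 higher and 18 lower. Among called genes that averaged 50 or more counts and did not overlap between the groups, the highest were CHAC1 (log2 difference 1.98, adjusted p = 0.00167), CTH (1.54, 5.32e-04), SLC7A11 (1.52, 4.50e-06) and TFRC, the transferrin receptor that imports iron (1.36, 1.55e-05). TFRC measured 442, 315, 399 and 446 CPM in the combination, 160.3, 127.2, 179 and 157 CPM in Tpc and a mean of 179.7 ± 55.9 CPM (SD, n = 4) in DMSO, so that all Tpc libraries lay within the range of DMSO and the combination stood above both. The lowest were MT-TQ, MT-TP, MT-ND5 (-1.74, adjusted p = 1.08e-06) and MT-ND6 (-1.74, 1.69e-06). Of the ATF4 list 14 of 38 were higher than in Tpc alone and none lower, and of the heat shock list 4 of 23 were lower. No gene of the 3 NF-kappa B lists nor of the G2/M list was called in this contrast, and CXCL8 differed by 0.01. CXCL2 (1.22, adjusted p = 0.46), IER3 (0.45, 0.1) and NFKBIA (0.39, 0.228) were higher without overlap but not called. RELB and TNFRSF9 had -0.10 and -0.04. The list medians were 0.05 for subunits and inhibitors, -0.04 for chemokines and cytokines and 0.38 for surface proteins and survival factors.

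Against OL9-119 alone 118 genes differed (0.408%), 72 higher and 46 lower. CXCL1 (5.02, adjusted p = 5.31e-09), CXCL10 (4.87, 2.22e-04), CXCL8 (4.32, 1.28e-25) and CCL20 (4.30, 1.11e-17) were the highest under the same limits. The lowest under them were TTC28 (-1.63, 1.94e-05), PSRC1 (-1.59, 1.05e-04), GPHN, the inhibitory synapse scaffold (-1.48, 6.29e-06), and PLK1 (-1.47, 1.54e-08). PIF1 had a lower value (-3.11, 0.0011) but averaged 46.25 counts. On the lists 13 of 48 G2/M genes were lower than in OL9-119 alone, and 5 of 14 NF-kappa B subunits and inhibitors were higher. For the ATF4 list 1 gene was higher and 1 lower of 38. HSPA8 differed by 0.02 and MT-ND5 by 0.43, and neither was called.

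Side by side against DMSO, whose libraries all the WT comparisons share, CXCL8 had log2 fold changes of 4.54 in the combination, 4.52 in Tpc and 0.22 in OL9-119. NFKBIA had 2.35, 1.96 and 0.75 in the same order. KIF20A had -1.90, -1.73 and -0.48. For SLC7A11 they were 2.39, 0.87 and 2.76, for HSPA1B -2.62, -0.88 and -2.40, and for MT-ND5 -1.85, -0.11 and -2.28. ATF3 was raised by each agent (2.00, 1.98 and 1.18).

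Very long genes had a median below 0. Of 578 genes spanning 300 kb or more with a mean of at least 10 counts, 412 (71.3%) had a log2 fold change below 0, 28 fell and 4 rose, and the median was -0.26. In the bins below 10 kb, 10 to 30 kb, 30 to 100 kb and 100 to 300 kb the medians were -0.09, 0.00, 0.09 and 0.03. The median over the long genes relative to the DMSO mean was -0.13, -0.33, -0.13 and -0.17 in the 4 combination libraries and -0.01, 0.20, -0.39 and 0.28 in the DMSO libraries, so replicate 3 of DMSO lay below all of the combination. Without it the median was -0.37. With all libraries it was -0.35 among long genes with 2000 to 6000 exonic bases (85 genes). GPHN (674397 bases) measured 13.4, 5.83, 11.8 and 12.1 CPM in the combination and 26.4, 30.7, 27.1 and 32.9 CPM in DMSO (log2 fold change -1.44 ± 0.22 (SE), adjusted p = 2.41e-06). TTC28 (701827 bases), a tetratricopeptide repeat gene, measured 14.4, 7.02, 23.5 and 22.8 CPM against 29.8, 52.4, 37.6 and 55.3 CPM (log2 fold change -1.40 ± 0.25 (SE), adjusted p = 9.18e-05), and VAV3 (394020 bases), a guanine nucleotide exchange factor, fell at low counts (log2 fold change -1.79 ± 0.41 (SE), adjusted p = 0.0024; -2.60 without replicate 3 of the combination). FAF1 (523240 bases), a ubiquitin-binding protein gene, was the only one of 20 listed long genes called (log2 fold change -0.67 ± 0.13 (SE), adjusted p = 3.97e-04), and PTK2, the focal adhesion kinase, had -0.44 (adjusted p = 0.054). CREB5, AHR, PRELID2 and NEDD4L, named after their values were seen, were the 4 long genes that rose (1.37, 0.99, 1.18 and 0.52).

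**Figure D2:**
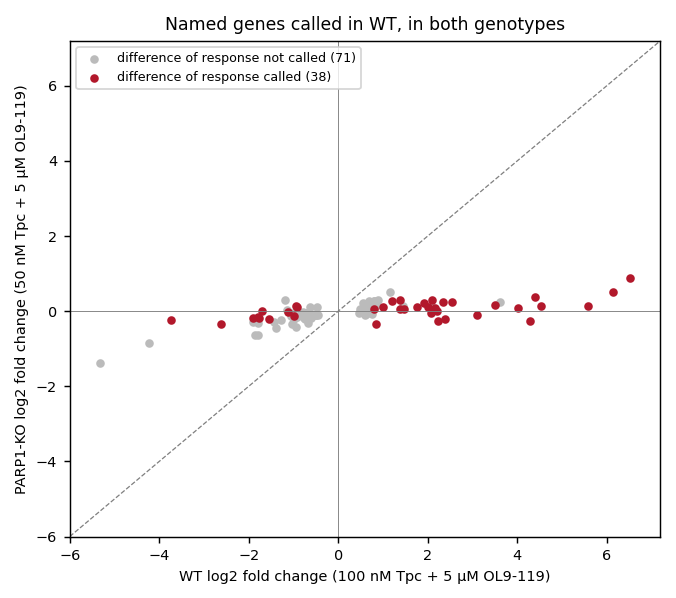
Log2 fold change of the combination against DMSO in WT cells (horizontal axis, 100 nM Tpc) and in PARP1-KO cells (vertical axis, 50 nM Tpc) for the 109 named genes called in WT; the dashed line marks equal values and red points are the 38 genes whose response differed between genotypes. Most points lie near 0 on the vertical axis.

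PARP1 mRNA measured 850.0, 834, 737 and 850.3 CPM in WT DMSO and 30.4, 40.96, 46.6 and 39.8 CPM in PARP1-KO DMSO. The same agents in PARP1-KO cells, at 50 nM Tpc, changed no gene past the threshold (0%). There were 834 genes at an unadjusted p below 0.05 in edgeR, and DESeq2 called 1 gene. In several named genes, though not in all, replicate 3 of both PARP1-KO groups lay on the opposite side of the other replicates. SNHG1 measured 370, 355, 251 and 357 CPM in the combination and 255, 257, 352 and 251 CPM in DMSO. SRSF6 measured 514, 505, 399 and 540 CPM against 346, 365, 599 and 379 CPM. MT-ND5 measured 711, 548, 2139 and 598 CPM in the combination and 2079, 1659, 712 and 1754 CPM in DMSO. CHAC1 measured 20.3, 23.6, 7.71 and 21.1 CPM against 8.72, 9.37, 25.4 and 13.2 CPM. The part of these libraries in the PARP1-KO values was not tested beyond leaving out 1 at a time, which always keeps the other. A fit without both was not run, so the absence of calls in PARP1-KO cells holds only with them included. The response itself differed between genotypes for 0.432% of the genes tested, 35 with a higher and 90 with a lower value in PARP1-KO. CXCL8 had a log2 fold change of 0.13 in PARP1-KO against 4.54 in WT (difference -4.41, adjusted p = 4.42e-20). SLC7A11 had -0.21 against 2.39 (adjusted p of the difference = 1.28e-08). KIF20A had -0.19 against -1.90 (adjusted p of the difference = 2.37e-08), and HSPA1B had -0.33 against -2.62 (adjusted p of the difference = 4.45e-12). By list, the response was lower in PARP1-KO for 17 of 38 ATF4 genes and 5 of 14 NF-kappa B subunits and inhibitors, and higher for 14 of 48 G2/M genes. MT-ND5 (-0.64 in PARP1-KO, with replicate 3 of both groups included) was not among them (adjusted p of the difference = 0.037). Because genotype and Tpc dose changed together, and the knockout is a single clone, these cannot be told apart. All of these differences include replicate 3 of both PARP1-KO groups.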

How the data were processed

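RNA was measured in 40 libraries of HEK293A cells, 4 for each of 10 conditions, of which 8 form the comparison reported. Libraries were directional, started from poly(A) RNA and gave paired reads of 100 bases. The authors deposited raw counts per gene, made with STAR 2.7.8 (GeneCounts, hg38, Ensembl 93). The submitters' processing notes also name FastQC 0.11.9 and Picard 2.26.6. The strand setting of the counting is not given in the sources used here. The table held 0 columns of other samples.

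Genes whose counts added up to 10 or more in the 40 libraries were tested with edgeR 4.0.16 (R 4.3.3, quasi-likelihood F-test, TMM scaling, 1 fit of 40 libraries with a term per condition), and p-values were adjusted by Benjamini and Hochberg over all genes, with a threshold of 0.01. DESeq2 1.42.0 was run as an alternative. CPM are counts per 1000000 of the TMM-scaled library size, and list sums are of CPM. Only the sums of cell type markers use the raw library total. The script was tested on simulated data with 200 changed genes. Of 100 genes changed by 2 log2 units 98 were called, of 100 changed by 1 unit 65, and of 24202 unchanged genes 2. Single values were compared by a two-sided exact permutation test (scipy 1.17.1). Gene positions are those of GENCODE 44 on hg38.

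Named genes are TOP1, TDP1 and PARP1, the 10 highest and 10 lowest called fold changes with a mean of at least 50 counts and no overlap between the groups, up to 4 called members of each of 32 lists at the same count minimum (2 of high level where fewer were called), and the 4 highest and 4 lowest in each of the 4 other comparisons. Lists and comparison were chosen with earlier results of these data known. Depth limits genes near 10 counts. The spread between libraries does not cover the choice of scaling, the strand setting or the use of a single clone. If the libraries are technical replicates, it does not cover differences between independent cultures either.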

Additional observations from a re-analysis of the deposited data

Results flagged for a closer look

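Some libraries lay far from the other 3 of their group by Dixon's test, which singles out about 1 in 20 groups by chance. Such values were seen in 20 of the 240 groups of 4 looked at, all of the WT combination or WT DMSO. In replicate 3 of WT DMSO they were PARP1 (737 CPM), CXCL2 (0.719 CPM), CD69 (4.2 CPM), RFC5 (40.4 CPM), H1-2 (22.2 CPM), MRPL33 (99.8 CPM), RPL38 (1264 CPM) and RPL24 (1096 CPM). The same was seen in replicate 1 of DMSO for POLD3 (105 CPM), HERPUD1 (49.2 CPM) and TXNIP (128.3 CPM). The same was seen in replicate 4 of DMSO for CXCL10 (0.783 CPM) and SESN2 (58.2 CPM). The same was seen in replicate 1 of the combination for IER3 (201 CPM) and SUPV3L1 (95.8 CPM). The same was seen in replicate 2 of the combination for MT-TP (2.37 CPM), PSMA3 (134 CPM) and UBB (1034 CPM). The same was seen in replicate 4 of the combination for MT-TQ (1.65 CPM) and DNAJB1 (84.3 CPM).

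The response to the combination differed between PARP1-KO cells (50 nM Tpc) and WT cells (100 nM Tpc) for 38 of the named genes called in WT, by the test of the difference itself (edgeR, adjusted p below 0.01). Values are the log2 response in PARP1-KO minus that in WT. They do not show the levels in DMSO, which differed too. GADD45A averaged 219 CPM in PARP1-KO DMSO, 66.0 CPM in WT DMSO and 171 CPM in the WT combination, and TNFAIP3 54.2, 11.2 and 182 CPM. Chemokine genes had CXCL10 (-5.63), CXCL2 (-5.63), CXCL1 (-5.46), CXCL8 (-4.41) and CCL20 (-4.54). Other NF-kappa B-responsive genes had TNFAIP3 (-3.93), PTX3 (-3.36), NFKBIA (-2.11), RELB (-2.07), TNFRSF9 (-2.31), ICAM1 (-2.48) and IER3 (-2.22). Immediate early and p53-responsive genes had ATF3 (-1.89), JUNB (-1.72), MAFF (-1.64), JUN (-1.09), GADD45A (-1.31) and PMAIP1 (-0.74), and ATF4 pathway genes CHAC1 (-4.03), SLC7A11 (-2.60), CTH (-1.80) and ALDH1L2 (-2.11). Further negative differences were those of TCIM (-3.20), VEGFA (-1.43), HK2 (-1.18), SNHG1 (-0.95) and SNHG17 (-0.90). Positive differences were those of PIF1 (3.51), HSPA1B (2.28), KIF20A (1.71), PSRC1 (1.64), CENPA (1.70), HSPA8 (1.59), DNAJB1 (1.09), TXNIP (1.08), MT-CO2 (0.86), SF3B5 (1.04) and PLK1 (1.35). Genotype and Tpc dose cannot be told apart in these values. They also include replicate 3 of both PARP1-KO groups, which in genes such as CHAC1, SNHG1 and KIF20A lay opposite to the other replicates. The differences without both of those libraries were not tested.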

How the results depend on the processing

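The 978 genes called between the combination and DMSO became 341 with the 20 WT libraries, 136 with the 8 compared, 1617 with DESeq2, 395 with DESeq2 on the 8 libraries, 2137 at adjusted p below 0.05 and 281 with a change of at least 2-fold. Leaving out 1 library gave 608 (replicate 3 of DMSO) to 1292, with 620 without replicate 1 of the combination. For the combination against Tpc, 52 became 106 with DESeq2, 112 with DESeq2 on the groups compared, 79 with no filter, 82 at 0.05 and 19 at 2-fold, and 32 to 53 without 1 library (32 and 33 without replicates 1 and 3 of Tpc, 33 without replicate 1 of the combination). Against OL9-119, 118 became 278 and 216 with DESeq2, 65 with the groups compared, 210 with no filter, 244 at 0.05 and 49 at 2-fold, and 70 to about 1.3e+02 without 1 library (73, 71 and 70 without replicates 2, 3 and 4 of OL9-119, 70 and 74 without replicates 1 and 2 of the combination). In PARP1-KO cells 0 became 1 with DESeq2 and 2 with no filter, and 0 to 1 without 1 library (1 without replicate 3 of the combination). The number of genes whose response differed between genotypes became 248 with DESeq2, 57 with the groups compared, 227 with no filter and 251 at 0.05, and 84 to 186 without 1 library. The cause of these differences was not tested. Of the 109 named genes called, 64 were not called with the 8 libraries alone, 44 with the WT libraries and 31 without replicate 3 of DMSO, and none changed sign in the alternatives run on single genes. FASN (-0.04, not called) ranged from -0.17 to 0.13 without 1 library. Deviations of samples with the same replicate number had r of -0.0848 to 0.189 between the combination and DMSO (1 of 4 pairs above 0.1), -0.0458 to 0.1705 against Tpc (2 of 4), -0.0866 to 0.2003 against OL9-119 (2 of 4) and -0.1179 to 0.1946 in PARP1-KO cells (1 of 4), so the numbers were not taken to pair the samples. A replicate block gave 1028 calls against DMSO. With untreated WT cells, which lack the DMSO, as the control 1177 genes were called, 598 higher and 579 lower. The legacy option, DESeq2 on the groups compared and the alternatives for gene lists and gene span without replicate 3 of DMSO were chosen after seeing the data. Without 1 library the median of genes spanning 300 kb and over ranged from -0.37 to -0.17, the TOP1 difference from -49.1 to -21.9 CPM, the TDP1 difference from -15.8 to -9.30 CPM and the mitochondrial share difference from -1.88 to -1.22 percentage points. Library depth limits genes of low count.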
